A study of Mus musculus with 136 samples.

Results

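The 37 genes of the mouse mitochondrial genome were examined among the 47643 genes of a count table made from single embryos and their yolk sacs. A gene was taken as a member when its symbol starts with mt-. Of the 37, 13 carry such a symbol in the table, and these are the mRNAs. The other 24, 2 rRNAs and 22 tRNAs, are listed there by Ensembl identifier and were named from GENCODE M21. The samples were 66 concepti of NOD mice, whose females can become diabetic without treatment, recovered at E8.5 from diabetic or normal dams that had been mated to normoglycemic NOD sires. For each conceptus the embryo and the visceral yolk sac, the extraembryonic membrane that nourishes the embryo before the placenta works, were sequenced separately, which gave 66 libraries of each tissue. In 2 of the concepti the sex label of the embryo differs from that of its yolk sac, and they were kept as pairs. At the stages with 5–6 somite pairs there were 17 concepti from normal and 17 from diabetic dams, and at the stages with 7–9 somite pairs 16 and 16. Blood glucose in the labels was 423 to 595 mg/dl in diabetic and 105 to 164 mg/dl in normal dams, and all dams share the NOD background, so the normal group is a group of non-hyperglycemic NOD mice and not another strain. The concepti came from 12 diabetic and 10 normal litters, littermates share a dam, and litter D24M15 gave 7 of the 16 diabetic concepti with 7–9 somite pairs.

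Mitochondrial DNA is a small circle whose strands are called heavy and light and are both transcribed in full. The resulting long RNAs are cut into mRNAs, rRNAs and tRNAs, largely by removal of the tRNAs that lie between the other genes. Transcripts of the heavy-strand promoter (here heavy-strand transcripts) are the 2 rRNAs, 12 of the 13 mRNAs and 14 tRNAs. The light-strand promoter gives mt-Nd6, a subunit of complex I and the only mRNA on that side, and 8 tRNAs. Most mitochondrial mRNAs receive a short poly(A) tail, which in several of them completes the stop codon, whereas mt-Nd6 in human cells is known to lack such a tail and mature tRNAs end in an added CCA. This matters here because the libraries were made with QuantSeq 3′ FWD, in which an oligo(dT) primer starts the copy and 1 read per molecule is taken near the place of priming, with random tags (unique molecular identifiers) to count each molecule once. A count is therefore a count of primed molecules, and for tRNAs and mt-Nd6 it does not measure the mature pool as such.

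How the end sequences of the mRNAs relate to such priming, and to the counts, was not tested. The last 30 bases of the annotated transcripts, 5′ to 3′, are given for mt-Nd1, mt-Nd4 and mt-Cytb as abundant heavy-strand mRNAs, for mt-Nd5 and mt-Nd6, which meet tail to tail, and for mt-Co1 and mt-Nd3 at the edge of and within a stretch without counts. Capitals mark the stop codon as annotated, or the single T that becomes a stop codon when the tail is added. The annotated end of mt-Nd1 overlaps the start of mt-Ti by 2 bp on the same strand, and where its mature RNA ends was not tested.
mt-Nd1: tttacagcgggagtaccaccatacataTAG
mt-Nd4: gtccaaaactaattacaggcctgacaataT
mt-Cytb: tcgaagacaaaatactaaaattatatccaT
mt-Nd5: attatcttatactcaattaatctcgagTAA
mt-Nd6: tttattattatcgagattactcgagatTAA
mt-Co1: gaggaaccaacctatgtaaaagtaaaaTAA
mt-Nd3: acacaaaaaggattagaatgaacagagTAA
They lie on the mitochondrial chromosome of GRCm38 at chrM:3678-3707, chrM:11515-11544, chrM:15259-15288, chrM:13536-13565, chrM:13552-13581, chrM:6843-6872 and chrM:9777-9806 in that order. All are read from the plus strand of the reference except mt-Nd6, which is read from the minus strand. The annotated ends of mt-Nd5 and mt-Nd6 overlap by 14 bp on opposite strands. The kit keeps the strand of the RNA, but the strand setting used in counting is not given in the sources used here, and if strand was ignored, reads from a light-strand gene and antisense reads over it cannot be told apart.

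The tRNA genes that the results turn on are shown whole, with the longest run of A in the gene in capitals (the first where runs tie). mt-Tq, mt-Tc, mt-Ta and mt-Tp carry glutamine, cysteine, alanine and proline and belong to the light-strand promoter, and mt-Tm carries methionine and belongs to the heavy-strand promoter.
mt-Tq: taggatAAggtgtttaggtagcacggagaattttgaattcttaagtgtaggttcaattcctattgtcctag
mt-Tc: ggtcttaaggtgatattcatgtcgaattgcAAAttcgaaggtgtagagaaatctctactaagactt
mt-Ta: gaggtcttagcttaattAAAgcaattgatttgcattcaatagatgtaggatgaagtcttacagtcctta
mt-Tp: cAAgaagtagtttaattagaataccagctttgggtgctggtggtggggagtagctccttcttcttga
mt-Tm: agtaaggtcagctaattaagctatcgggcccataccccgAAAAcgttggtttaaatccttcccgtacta
Their positions are chrM:3772-3842, chrM:5192-5257, chrM:5018-5086 and chrM:15356-15422 on the minus strand and chrM:3845-3913 on the plus strand. The longest of these runs has 4 bases, in mt-Tm. Among all 22 tRNA genes the longest are the run of 8 in mt-Tr and the run of 6 in mt-Th, which held 1 and 0 counts in all libraries together. mt-Tr lies in the block nearly without counts described below, and neither gene has a measured level here.

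Counts over the mitochondrial genome were uneven. mt-Rnr2, the 16S rRNA, held 32.2% of all mitochondrial counts in the libraries together, followed by mt-Nd1 with 15.9%, mt-Nd4 with 15.4%, mt-Nd2 with 11.5%, the 12S rRNA mt-Rnr1 with 11.1% and mt-Cytb, the cytochrome b of complex III, with 8.76%. mt-Nd5 held 1.97%, mt-Co1, the catalytic subunit of complex IV, 1.42%, and mt-Nd6 0.607%. On a scale of summed counts per kb of gene length, mt-Nd6 (203931) was close to mt-Nd5 (188570) and mt-Co1 (159740), and mt-Nd1 (2895452) and mt-Rnr2 (3543710) were the highest of these genes. Among tRNAs mt-Tt (threonine) held 0.295% of mitochondrial counts, mt-Tm 0.271%, mt-Tq 0.221% and mt-Tc 0.147%. The 14 heavy-strand tRNAs together had 119902 counts and the 8 light-strand tRNAs 80793, against 9587567 for the heavy-strand mRNAs.

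**Figure D1:**
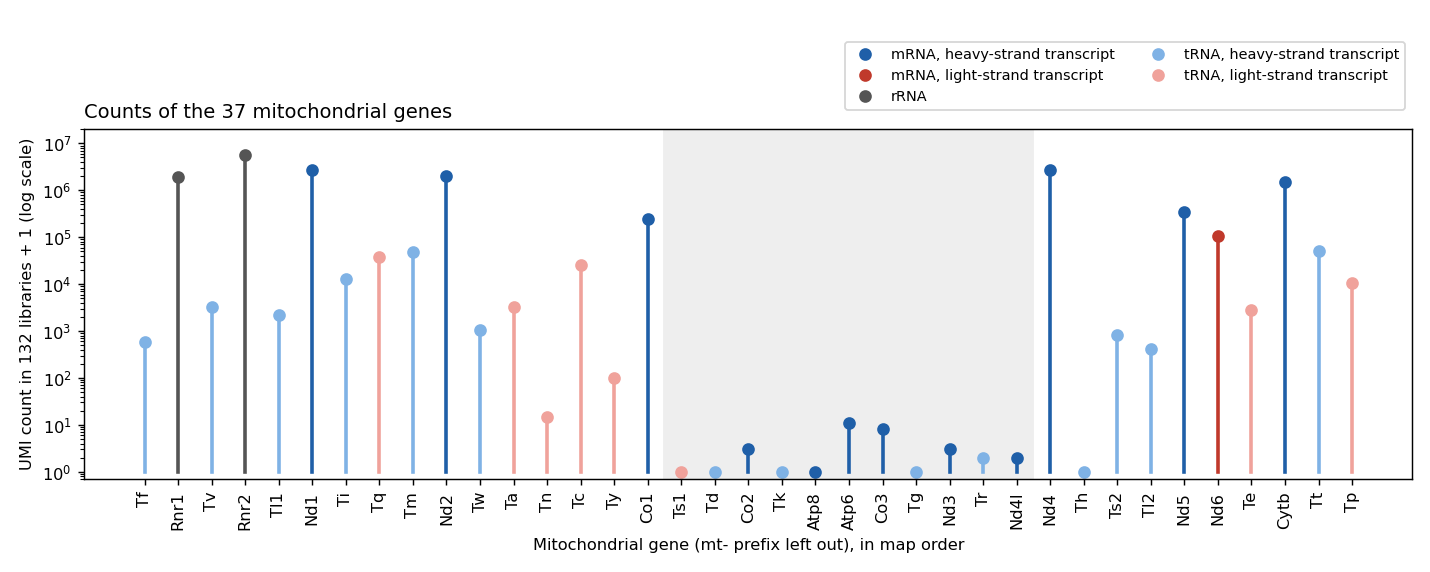
Total counts over all libraries for the 37 mitochondrial genes in their order on the genome, on a log axis of count + 1 and coloured by class. The grey band marks the 11 adjacent genes from mt-Ts1 to mt-Nd4l, which held 23 counts in all, between mt-Co1 and mt-Nd4, which held 246798 and 2689478.

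A block of 11 adjacent genes was nearly without counts. It runs from mt-Ts1 to mt-Nd4l (chrM:6870-10173) and contains mt-Co2 and mt-Co3, subunits of complex IV, mt-Atp6 and mt-Atp8, subunits of ATP synthase, mt-Nd3 and mt-Nd4l, subunits of complex I, and 5 tRNAs. Together they held 23 counts in all libraries, with 10 on mt-Atp6, 7 on mt-Co3, 2 on mt-Co2, 2 on mt-Nd3 and 0 on mt-Atp8. mt-Nd1, mt-Nd4 and the 2 rRNAs had counts in every library. The block holds genes of both strands, of complexes I and IV and ATP synthase, and of mRNA and tRNA.

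Some of its genes have copies in the nuclear genome. At chr1:24611535-24616197 on the minus strand of GRCm38, 7 annotated genes are copies of mitochondrial genes from mt-Co1 to mt-Nd4, with 99.71% to 100% identity to the aligned part of their counterparts. Of all windows of 50 bases in mt-Co2, 99.5% also occur in a copy on chromosome 1, and the values were 99.5% for mt-Atp6, 99.9% for mt-Co3, 98% for mt-Nd3 and 98.8% for mt-Nd4l. mt-Atp8, also in the block, had 0 in the copies listed as genes, where its aligned part is the 43 bases it shares with mt-Atp6. The value was also 0 for mt-Nd1, mt-Nd2, mt-Nd5, mt-Nd6, mt-Cytb and both rRNAs. For mt-Nd4 it was 62.2% over the gene and 0 over its last 300 bases. For mt-Co1 it was 28.7% over the gene and 100% over its last 300 bases, and mt-Co1 held 246798 counts. Where in the gene the reads of mt-Co1 lay was not tested. The 5 tRNAs of the block have no such window in the copies listed as genes. The stretches between those copies were not analysed here, so the values for these tRNAs and mt-Atp8 do not cover them. The aligned parts reach from chrM:6390 to chrM:11042, and the whole block (chrM:6870-10173) lies within these limits. The 7 nuclear copies held 1013 counts, with medians of their sum between 3.91 and 7.8 normalized counts per group. Whether reads that map to both places were discarded in the counting was not tested, and the 12 genes with at most 10 counts (the block and mt-Th) have no measured level here. A further 5 tRNAs, mt-Tf, mt-Tn, mt-Ty, mt-Ts2 and mt-Tl2, held 585, 14, 97, 809 and 403 counts and were too low for the tests below.

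Normalized counts below are counts divided by the size factors of DESeq2 over all libraries, and a library total lay between 1017901 and 5658850 counts. Mitochondrial genes took a median of 4.1% to 5.07% of all counts in the 4 groups of embryos and 5.94% to 6.86% in the 4 groups of yolk sacs. The highest yolk sac was at 12.4% and the highest embryo at 7.21%, and the share was higher in the yolk sac than in the embryo of the same conceptus in 33 of 34 and 32 of 32 concepti. In bulk tissue, fewer mitochondria or cells of a kind and less RNA in each cannot be told apart.

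Both directions of difference occurred between the tissues. Yolk sacs had more heavy-strand mRNA and rRNA than embryos and less mt-Nd6, mt-Te and mt-Tp. Of 19 members tested at 5–6 somite pairs, 9 were higher and 5 lower in the yolk sac (edgeR's quasi-likelihood test, Benjamini-Hochberg adjustment over all genes tested, call at an adjusted p under 0.05). Calls were common over all 11471 genes, 79.3% of which passed, 38.5% higher and 40.7% lower. At 7–9 somite pairs 9 of 20 members were higher and 4 lower, with 81.1% of 11382 genes called, 39.1% higher and 42% lower. The median log2 fold change of the heavy-strand transcripts tested was 0.58 and 0.55 at the earlier and the later stage, and that of the 6 light-strand transcripts tested was -1.28 and -1.17, while the median over all genes was -0.02 and -0.03.

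mt-Nd6 showed the tissue difference in nearly every conceptus. Its lowest, median and highest normalized counts at 7–9 somite pairs were 406, 1012 and 2038 in normal embryos and 101, 144 and 353 in normal yolk sacs, with no overlap. In diabetic concepti of that stage embryos had 227, 1876 and 3152 and yolk sacs 119, 479 and 1451, and these ranges overlapped. At 5–6 somite pairs they were 246, 710 and 1665 in normal and 313, 937 and 1717 in diabetic embryos, and 48.7, 174 and 647 in normal and 96.2, 273 and 1299 in diabetic yolk sacs. The log2 difference, yolk sac against embryo, was -1.48 (SE 0.20, adjusted p 8.5e-10) at the earlier and -2.13 (SE 0.20, adjusted p 2.6e-15) at the later stage. Within concepti, mt-Nd6 was lower in the yolk sac in 33 of 34 and in 32 of 32.

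**Figure D2:**
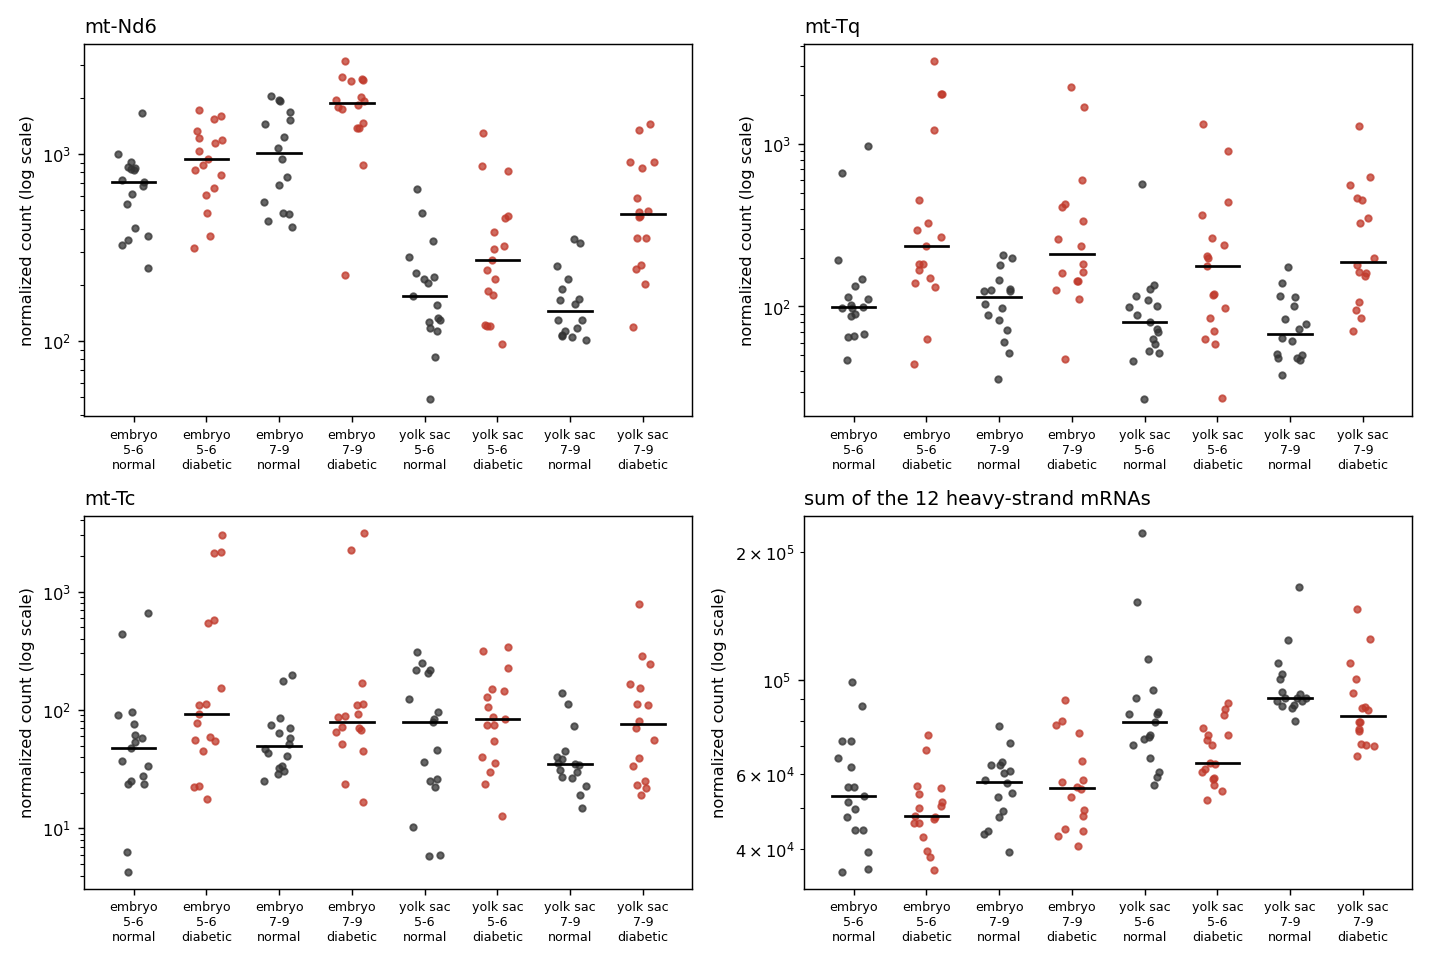
Normalized counts of mt-Nd6, mt-Tq, mt-Tc and the sum of the heavy-strand mRNAs in each library, on log axes, by tissue, stage and maternal condition, with diabetic pregnancies in red and the median of each group as a bar. The medians of mt-Nd6 are higher in embryos and those of the heavy-strand sum in yolk sacs, and mt-Tq and mt-Tc have single embryos far above the rest of their group.

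Set against the heavy-strand mRNAs of the same library, the difference was larger. The sum of the heavy-strand mRNAs had a median of 53308 normalized counts in normal embryos and 79436 in normal yolk sacs at 5–6 somite pairs, and 57596 and 90769 at 7–9. Per 1000 of these, the median of mt-Nd6 was 12.6 in normal and 20.4 in diabetic embryos and 2.2 and 3.87 in the corresponding yolk sacs at the earlier stage. At the later stage embryos stood at 17.5 (normal) and 34.2 (diabetic), and yolk sacs at 1.38 and 5.98. The ratio was lower in the yolk sac than in the embryo of the same conceptus in 34 of 34 and 32 of 32 concepti.

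Of the heavy-strand mRNAs, 5 of 6 tested were higher in the yolk sac at 5–6 somite pairs and 4 of 6 at 7–9. mt-Nd1, the first subunit of complex I on the map, ranged from 10519 to 19733 normalized counts in normal embryos and from 22605 to 49969 in normal yolk sacs at 7–9 somite pairs, without overlap. Its log2 difference was 0.85 (SE 0.10) and 1.07 (SE 0.08) at the 2 stages, and it was higher in the yolk sac in 33 of 34 and 32 of 32 concepti. mt-Cytb differed by 0.58 and 0.94, mt-Nd2 by 0.61 and 0.50 and mt-Nd4 by 0.38 and 0.61. mt-Nd5 passed the test at the earlier stage with 0.27 and not at the later with 0.13 (adjusted p 0.14). mt-Co1, for which the annotated end is also present on chromosome 1, had values of 0.13 (adjusted p 0.34) and -0.05 (adjusted p 0.577). With library size alone as normalization mt-Nd4 and mt-Nd5 at the earlier stage no longer passed, with 0.20 and 0.07.

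Both rRNAs were higher in the yolk sac, mt-Rnr1 by 1.20 (SE 0.18) and 0.98 (SE 0.15) and mt-Rnr2 by 1.05 (SE 0.19) and 1.07 (SE 0.16) on the log2 scale. Within concepti mt-Rnr2 was higher in the yolk sac in 32 of 34 and 29 of 32. Their summed level spread widely inside groups, from 16208 to 200506 normalized counts in normal yolk sacs at 5–6 somite pairs.

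Among the tRNAs both directions occurred. On the light-strand side mt-Te (glutamate), which lies directly next to mt-Nd6, was lower in the yolk sac, with log2 differences of -1.42 (SE 0.24) and -1.90 (SE 0.22), and mt-Tp differed by -1.44 (SE 0.30) and -1.28 (SE 0.25). They were lower in the yolk sac in 29 and 26 of 34 concepti and in 28 and 27 of 32. mt-Tq passed at the earlier stage with -0.95 (adjusted p 0.00892) and not at the later with -0.46 (adjusted p 0.0957), and mt-Ta passed at neither stage. mt-Tc differed by -1.14 (adjusted p 0.0212) and -1.06 (adjusted p 0.0115), but with each conceptus as a block the values were -0.14 (adjusted p 0.728) and -0.32 (adjusted p 0.328), and with normal libraries alone they were 0.03 (adjusted p 0.957) and -0.57 (adjusted p 0.0741). At 5–6 somite pairs mt-Tc was higher in the yolk sac in 18 and lower in 16 of 34 concepti, and its embryo group held a few very high libraries described further on.

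On the heavy-strand side mt-Tm was higher in the yolk sac by 0.92 (SE 0.15) and 0.48 (SE 0.14). mt-Ti (isoleucine) passed at the earlier stage with 0.60 and not at the later with 0.26 (adjusted p 0.0846), and under the block by conceptus it passed at the later stage too (0.31, adjusted p 0.0313). mt-Tt passed at the later stage with 1.38 and under the block also at the earlier one (0.50, adjusted p 0.0178). mt-Tw (tryptophan), tested only at the later stage, differed by 1.80 (SE 0.26), from medians of 3.77 and 2.03 normalized counts in embryos to 9.39 and 14.9 in yolk sacs. mt-Tv (valine) and mt-Tl1 (leucine) passed at neither stage, and mt-Tv with normal libraries alone was at 0.57 at the later stage (adjusted p 0.0287) against -0.24 with all of them.

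**Figure D3:**
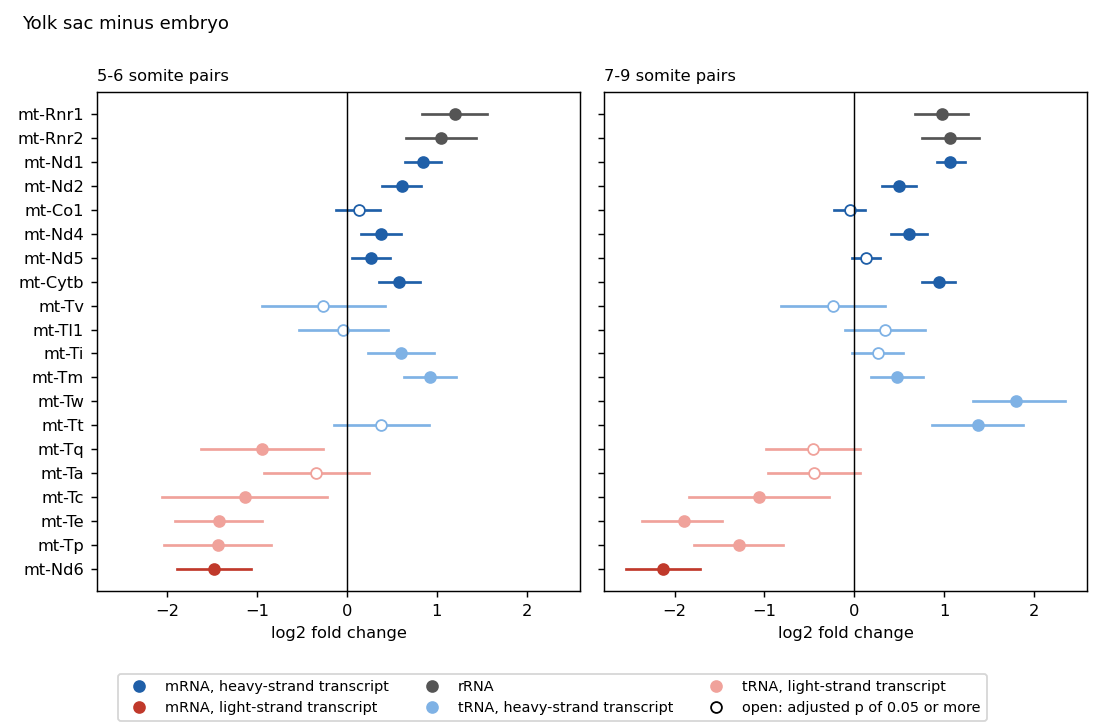
Log2 fold change between yolk sac and embryo for each mitochondrial gene tested, with its 95% confidence interval, at 5–6 (left) and 7–9 (right) somite pairs. Filled points passed at an adjusted p under 0.05, and the light-strand genes mt-Nd6, mt-Te and mt-Tp sit left of 0 in both panels while mt-Nd1, mt-Cytb and the rRNAs sit right of it.

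Cell-type markers moved with this comparison much more than the members did. All 10 markers of visceral endoderm, the absorptive epithelium of the yolk sac, were higher in yolk sacs at both stages, with medians of 5.21 and 5.68 on the log2 scale, and all 8 markers of the embryo proper were lower. The summed visceral endoderm markers ranged from 96.3 to 3362 normalized counts in embryos and from 10372 to 53508 in yolk sacs, and all 5 markers of primitive erythroid cells were higher in yolk sacs as well. Of 8 maternal blood markers 3 were tested, and these 3 were higher in yolk sacs at both stages, with medians of 3.67 and 3.73. Whether their counts come from maternal cells was not tested. The labels of the tissues were thus matched by the visceral endoderm and embryo-proper markers. How much of the mitochondrial difference belongs to the composition of the tissues was not tested.

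Under maternal diabetes the members that differed were tRNAs of both promoters, more of them from the light-strand one, and mt-Nd6. In embryos with 7–9 somite pairs 7 tRNAs were higher under diabetic conditions, in yolk sacs of that stage mt-Nd6 and mt-Tq, and in embryos with 5–6 somite pairs mt-Tm and mt-Ta. With the litter as a random block only mt-Nd6 in yolk sacs at 7–9 somite pairs stayed called (adjusted p 0.0301), and with the counts of each litter added up no member was. No member was called lower in any of the 4 comparisons. None of the 6 heavy-strand mRNAs or the 2 rRNAs passed in any of them by edgeR's quasi-likelihood test, although 1, 2, 4 and 1 of the 6 mRNAs had an unadjusted p under 0.05 in embryos at the earlier and later stage and yolk sacs at the earlier and later stage. In that order, the median log2 fold change of the light-strand transcripts tested was 1.56, 1.71, 0.63 and 1.54 and that of the heavy-strand transcripts 0.07, 0.13, -0.28 and 0.09, beside 0.00, -0.01, -0.00 and 0.02 over all genes tested.

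**Figure D4:**
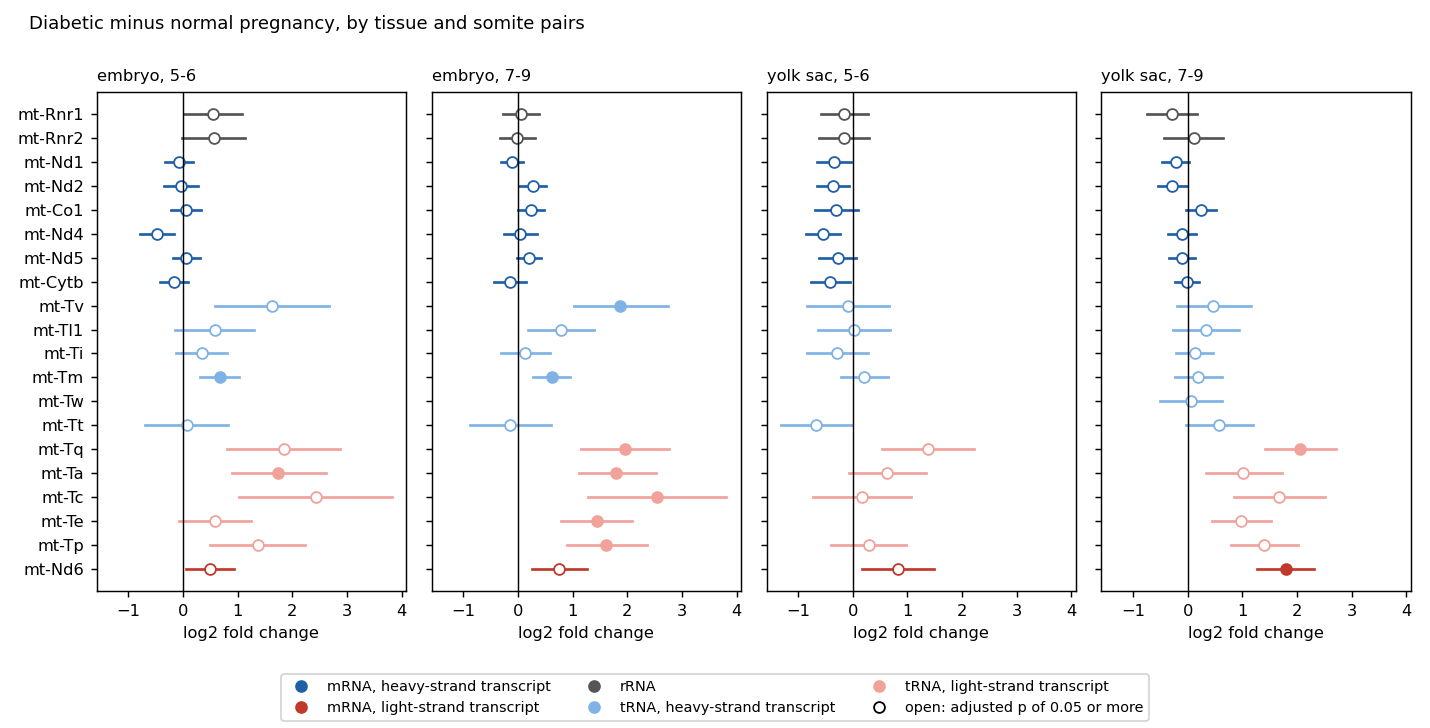
Log2 fold change between diabetic and normal pregnancies for each mitochondrial gene tested in embryos and yolk sacs at both stages, with 95% confidence intervals and filled points at an adjusted p under 0.05. The heavy-strand mRNAs lie between -0.54 and 0.27 in the 4 panels, and the filled points are tRNAs and, in yolk sacs at 7–9 somite pairs, mt-Nd6.

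In embryos with 7–9 somite pairs 7 of 19 members were called, where 9.09% of 10628 genes were, 5.2% with a higher level under diabetic conditions. The light-strand tRNAs mt-Tq, mt-Tc, mt-Ta, mt-Te and mt-Tp all passed, which are all the light-strand tRNAs tested there. mt-Tq had a lowest, median and highest normalized count of 35.7, 114 and 208 in normal and 47.6, 210 and 2243 in diabetic embryos, a log2 difference of 1.96 (SE 0.40, adjusted p 0.00256), and 8 of 16 diabetic embryos lay above all normal ones. mt-Ta had 2.51, 13.6 and 27.6 in normal and 8.04, 35.3 and 150 in diabetic embryos, a difference of 1.80 (SE 0.35, adjusted p 0.0016), with 10 of 16 above all normal ones. mt-Tp went from a median of 39.9 to 80.5 (1.62, SE 0.36, adjusted p 0.00574) and mt-Te from 15.7 to 44.6 (1.44, SE 0.32, adjusted p 0.00569). The groups overlapped for each of these genes. When litters were modelled as a random block or their counts were added up, 0 of the 7 tRNAs passed, while 314 and 8 of all genes did. In the block fit the values ran from 0.57 (mt-Tm, adjusted p 0.0923) to 1.45 (mt-Ta, adjusted p 0.0502).

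mt-Tc had the largest fitted difference of the members, 2.55 (SE 0.63, adjusted p 0.0106), and it rested on 1 litter. Its lowest, median and highest normalized counts were 25.1, 49.3 and 198 in normal and 16.7, 79.5 and 3112 in diabetic embryos, and 2 diabetic embryos exceeded all normal ones. Without litter D28M23 the difference was 0.20 (adjusted p 0.703), and DESeq2 with all libraries gave 0.19 (adjusted p 0.756). Without the same litter mt-Tq stood at 1.06 (adjusted p 0.0135), mt-Tv at 0.88 (adjusted p 0.0218), mt-Tp at 0.78 (adjusted p 0.0236), mt-Te at 1.10 (adjusted p 0.0196) and mt-Ta at 1.38 (adjusted p 0.00592).

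On the heavy-strand side mt-Tv, which lies between the 2 rRNAs, was higher under diabetic conditions (1.87, SE 0.42, adjusted p 0.00625), from a median of 9.71 to 22 normalized counts. mt-Tm was higher by 0.62 (SE 0.17, adjusted p 0.0197), from a median of 256 to 429, and without litter N28M07 it was at 0.51 (adjusted p 0.0684). mt-Nd6 did not pass in these embryos, with 0.76 (SE 0.25, adjusted p 0.0508) and medians of 1012 and 1876. It lay above the normal median in 14 of 16 diabetic embryos. mt-Tl1 was at 0.78 (adjusted p 0.0877), mt-Ti at 0.13 and mt-Tt at -0.14.

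In embryos with 5–6 somite pairs 2 of 19 members were called, beside 1.46% of 11004 genes, 0.591% with a higher level under diabetic conditions. mt-Tm had 48.7, 177 and 269 normalized counts as lowest, median and highest in normal and 101, 242 and 446 in diabetic embryos, a difference of 0.67 (SE 0.18, adjusted p 0.0412). mt-Ta had 0, 8.92 and 39.9 in normal and 4.75, 21.2 and 152 in diabetic embryos, a difference of 1.74 (SE 0.43, adjusted p 0.0326). The groups overlapped in both genes, and without litter D28M23 neither passed, with 0.58 (adjusted p 0.104) for mt-Tm and 0.99 (adjusted p 0.165) for mt-Ta, nor did they when litters were modelled as a random block or added up. mt-Tq was at 1.84 (adjusted p 0.053), mt-Tc at 2.43 (adjusted p 0.0573), mt-Tv at 1.62 and mt-Tp at 1.37 (adjusted p 0.081 for both), and mt-Nd6 at 0.49 with 12 of 17 diabetic embryos above the normal median.

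In yolk sacs with 7–9 somite pairs 2 of 20 members were called, and these were the only 2 of 10317 genes, or 0.0194%. mt-Nd6 had a lowest, median and highest normalized count of 101, 144 and 353 in normal and 119, 479 and 1451 in diabetic yolk sacs, a log2 difference of 1.79 (SE 0.26, adjusted p 3.6e-04). In 12 of 16 diabetic yolk sacs mt-Nd6 lay above all normal ones. mt-Tq had 37.8, 68 and 175 in normal and 70.9, 189 and 1282 in diabetic yolk sacs, a difference of 2.06 (SE 0.32, adjusted p 5.9e-04), with 9 of 16 above all normal ones and 16 of 16 above the normal median. By litter, the median of mt-Nd6 was 109 to 344 in the 7 normal litters and 242 to 912 in the 6 diabetic litters, of which 5 exceeded all normal litters. For mt-Tq 3 of 6 diabetic litters did so. Without litter D24M15, which gave 7 of the 16 diabetic concepti, neither gene passed, with 1.22 (adjusted p 0.142) for mt-Nd6 and 1.36 (adjusted p 0.153) for mt-Tq. With the litter as a random block mt-Nd6 remained called (1.52, adjusted p 0.0301) and mt-Tq was not (1.63, adjusted p 0.0947), and with the counts of each litter added up neither was. The remaining light-strand tRNAs were at 1.40 (mt-Tp, adjusted p 0.072), 1.68 (mt-Tc, adjusted p 0.148), 0.97 (mt-Te, adjusted p 0.194) and 1.01 (mt-Ta, adjusted p 0.324).

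In yolk sacs with 5–6 somite pairs edgeR called 0 of 18 members and 0 of 10250 genes (0%). An unadjusted p under 0.05 was found for 7 of 18 members and for 863 genes, and DESeq2 called 0 members and 3 genes. mt-Nd6 was at 0.83 (adjusted p 0.526), mt-Tq at 1.38 (adjusted p 0.438) and mt-Nd4 at -0.54 (adjusted p 0.364). The signs of the 6 heavy-strand mRNAs were all negative here, between -0.54 and -0.27, and those of the 5 light-strand transcripts positive, between 0.17 and 1.38.

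The highest tRNA counts were in embryos of few litters. The light-strand tRNAs summed to a median of 223 normalized counts in normal and 435 in diabetic embryos at 5–6 somite pairs and to 215 and 445 at 7–9. In litter D28M23 the 3 embryos with 5–6 somite pairs had 2037 to 5922 and the 2 with 7–9 had 5512 and 5689, and the single embryo of litter D24M22 had 6074. Of the normal litters N24M21 was highest, with 1297 and 1914 in its 2 embryos at the earlier stage. The yolk sacs of the same D28M23 concepti had 385 to 470 and 145 to 318, and the highest yolk sac of all was at 2367. The heavy-strand tRNAs moved less, with medians of 572, 671, 572 and 792 for embryos (normal and diabetic at 5–6, then normal and diabetic at 7–9) and 935, 925, 991 and 1044 for yolk sacs in the same order.

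RNAs encoded in the nucleus that have no poly(A) tail were also higher in diabetic embryos. A list of 9 such RNAs, among them Rny3, a Y RNA, Rn7sk, which regulates transcription elongation, and Rnu11, a minor spliceosomal RNA, was set beside the members. In embryos 5 of 7 tested were higher under diabetic conditions at 5–6 somite pairs and 7 of 7 at 7–9, with median log2 fold changes of 1.59 and 2.62, where 0.591% and 5.2% of all genes were called higher, and Rny3 was at 3.16 (SE 0.38, adjusted p 2.4e-06) in the latter. With the litter as a random block 0 of 7 and 7 of 7 passed (Rny3 with 2.65, adjusted p 0.00797, at 7–9 somite pairs), and with the counts of each litter added up 0 of 7 and 1 of 8 did. Their summed level ran from 62.7 to 522 normalized counts in normal and from 67.7 to 3516 in diabetic embryos at 7–9 somite pairs. In embryos the highest sums of the 2 kinds were in different litters. In litter D24M15 these nuclear-encoded RNAs summed to 1673 to 3516 and the light-strand tRNAs to 341 to 1085 in embryos of that stage, and in litter D28M23 to 674 to 1106 beside 5512 to 5689. Yolk sacs had both highest sums in litter D24M15, with 635 for these RNAs and 2367 for the light-strand tRNAs at 7–9 somite pairs. At 5–6 somite pairs the highest sums were 365 and 1883, also both in that litter. In yolk sacs 0 of 2 tested passed at either stage by edgeR, and Rny3 was at 1.81 (adjusted p 0.072) at 7–9. Between tissues 5 of 6 and 7 of 7 were lower in the yolk sac, with medians of -2.04 and -3.23, where 40.7% and 42% of all genes were. The part of these RNAs in the values of mt-Nd6 and the tRNAs was not tested.

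A further label moved with the result. The library titles start with 23, 24 or 28, whose meaning is not stated. On the log2 scale of normalized count + 1, the mean of mt-Nd6 in diabetic embryos minus that in normal ones was 2.25 and 2.10 at the 2 stages among libraries numbered 24 (4 normal against 3 diabetic, and 3 against 7) and 0.01 and 0.28 among those numbered 28 (12 against 13, and 13 against 8). In yolk sacs it was 2.31 and 2.17 within 24 and 0.35 and 1.07 within 28. For mt-Tq in yolk sacs at 7–9 somite pairs the values were 1.94 and 1.31, and in embryos of that stage 0.69 and 1.55. The 7 diabetic concepti numbered 24 at the later stage are those of litter D24M15, so number and litter cannot be told apart there. The group numbered 23 had 1 conceptus per condition at the earlier stage. What the number stands for, and its part in the comparison, was not tested.

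No cell-type marker tested by edgeR passed in the comparisons of diabetic with normal pregnancies, but many were too low to be tested. In embryos 8 of 10 visceral endoderm and 0 of 8 maternal blood markers were tested at each stage. Of 5 primitive erythroid markers 1 and 3 were tested there at the earlier and the later stage. In yolk sacs these numbers were 10, 3 and 5 at each stage. Of 8 decidua or trophoblast markers 2 were tested in embryos and 1 in yolk sacs at each stage. All 8 embryo-proper markers were tested in embryos, and 1 and 0 in yolk sacs at the 2 stages. At 5–6 somite pairs the highest maternal blood sum was 669 normalized counts in diabetic and 21.9 in normal embryos, and 1117 and 1439 in yolk sacs. The highest decidua or trophoblast sums at the 2 stages were 403 and 814 in diabetic and 80.9 and 112 in normal yolk sacs. In embryos they were 61 and 89.3 against 69.2 and 81.3. The highest diabetic embryo at 7–9 somite pairs had a visceral endoderm sum of 3362 normalized counts and a primitive erythroid sum of 4633, against 1450 and 1577 for the highest normal one. In embryos of that stage the log2 fold changes of the 8 visceral endoderm markers tested were 0.21 to 0.91 (median 0.52) and those of the 3 primitive erythroid markers 1.17 to 1.63 (median 1.23), and their part in the mitochondrial values was not tested.

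Between stages members were called less often than genes in general. By edgeR over both conditions, those called included both rRNAs, lower at the later stage in both tissues, and mt-Nd2, higher. In embryos 5 of 19 members differed between 7–9 and 5–6 somite pairs, with maternal condition in the model, beside 30.1% of 11106 genes. mt-Rnr1 was at -0.56 (adjusted p 0.00685) and mt-Rnr2 at -0.64 (adjusted p 0.00373) on the log2 scale, and mt-Nd2 rose by 0.38 (adjusted p 0.00263), mt-Nd6 by 0.79 (adjusted p 2.4e-04) and mt-Tm by 0.77 (adjusted p 2.9e-06). In yolk sacs 5 of 20 differed, beside 40.4% of 10665 genes: mt-Rnr1 with -0.76 (adjusted p 1.3e-04) and mt-Rnr2 with -0.59 (adjusted p 0.00747) were lower, and mt-Nd4 with 0.52, mt-Cytb with 0.34 and mt-Nd2 with 0.29 were higher at the later stage. mt-Nd6 did not pass there, with 0.17 (adjusted p 0.57). Litters with both stages numbered 10. With the litter as a random block the rRNAs of the embryo did not pass (-0.32 for mt-Rnr1 and -0.33 for mt-Rnr2). In normal embryos the median rRNA sum was 30584 normalized counts at 5–6 and 26401 at 7–9 somite pairs. Fewer members were called in either tissue with normal libraries alone.

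**Figure D5:**
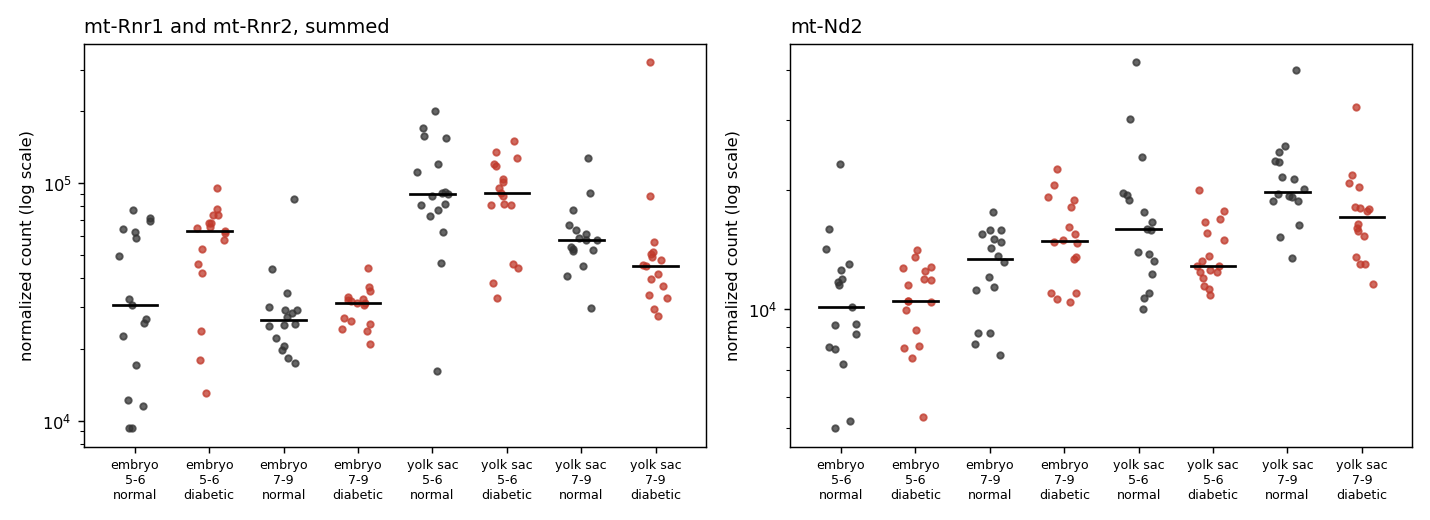
Normalized counts of the 2 rRNAs summed and of mt-Nd2 in each library, on log axes, by tissue, stage and maternal condition, with diabetic pregnancies in red and the group median as a bar. The rRNA sum of normal embryos at 5–6 somite pairs has an empty interval from 32444 to 49517, and the median of mt-Nd2 is 10088 in normal embryos at 5–6 and 13390 at 7–9 somite pairs.

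The rRNA level was not a smooth function of the stage within a group. In normal embryos with 5–6 somite pairs the rRNA sum ranged from 9277 to 76950 normalized counts, with 7 of 17 libraries above 40000 and none between 32444 and 49517. The level of 40000 lies inside this gap of the same embryos. In diabetic embryos of that stage 14 of 17 were above 40000, and at 7–9 somite pairs 2 of 16 normal and 1 of 16 diabetic embryos were. Medians of the sum differed between embryos with 5 and with 6 somite pairs, whose mix differed between conditions (values by somite number at the end). With 5–6 somite pairs the median was 30584 in normal and 63100 in diabetic embryos, and with 7–9 somite pairs 26401 and 31194. The difference between conditions did not pass in either rRNA at 5–6 somite pairs, with 0.55 (SE 0.26) for mt-Rnr1 and 0.57 (SE 0.28) for mt-Rnr2. Of the yolk sacs 16 of 17 normal and 15 of 17 diabetic ones lay above 40000 with 5–6 somite pairs, and 15 of 16 and 10 of 16 with 7–9.

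Whether the effect of diabetes differed between stages or tissues was tested as an interaction in the same kind of fit. By edgeR 0 members passed in any of the 4 interactions, in which 8.7% (stage, embryo), 0% (stage, yolk sac), 0% (tissue, 5–6) and 0.389% (tissue, 7–9) of genes did. An unadjusted p under 0.05 was found for 1, 7, 3 and 4 members and for 3171, 634, 895 and 2046 genes. The members with the smallest p were mt-Tw, mt-Nd2 and mt-Nd6 in the tissue interaction at 7–9 somite pairs, with 1.60 (adjusted p 0.091), -0.53 (adjusted p 0.106) and 1.04 (SE 0.38, adjusted p 0.134). The difference in the response of mt-Nd6 between yolk sacs and embryos thus missed the threshold.

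Nuclear genes for mitochondrial transcription, RNA cutting, polyadenylation and decay, tRNA modification, DNA replication and biogenesis were set beside the members, 73 in all and 70 in the table. Under diabetic conditions 1 rose and 1 fell of 64 tested in embryos with 5–6 somite pairs, Trmt10c, a subunit of the RNase P that cuts the 5′ ends of tRNAs (0.56, adjusted p 0.0467), and Fastkd3 (-0.30, adjusted p 0.0462), a member of a family of mitochondrial RNA-binding proteins. These were 2 of 64, where 1.46% of all genes were called. In embryos with 7–9 somite pairs 3 of 63 were higher and 2 lower, near the 9.09% called over all genes. Polrmt, the mitochondrial RNA polymerase, was higher by 0.37 (SE 0.12, adjusted p 0.0421), with 18.6, 33.4 and 48 normalized counts as lowest, median and highest in normal and 32.1, 43.2 and 58.3 in diabetic embryos. Hsd17b10, another subunit of RNase P, was at 0.29 (adjusted p 0.0265) and the topoisomerase Top1mt at 0.63 (adjusted p 0.0266), and Nsun3, which modifies mt-Tm, was at -0.61 (adjusted p 0.00767) and the exonuclease Mgme1 at -0.38 (adjusted p 0.0421). With the litter as a random block or with litter sums 0 of these 7 genes passed, and the smallest adjusted p in the block fit was 0.0526 (Hsd17b10). In yolk sacs 0 of 63 passed at either stage by edgeR. The median log2 fold change of the genes tested was between -0.03 and 0.03 in the 4 comparisons.

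Between tissues and stages the share of these genes called was near or below that of all genes. In the yolk sac 26 were higher and 18 lower of 64 at 5–6 somite pairs, and 23 and 19 of 65 at 7–9, where 79.3% and 81.1% of all genes were called. Most lists held genes of both directions. At 5–6 somite pairs 3 were higher and 5 lower of the replication list, 3 and 3 of the biogenesis list and 10 and 7 of the RNA cutting list. At 7–9 they were 4 and 7, 2 and 3, and 7 and 6. Polg, the DNA polymerase of mitochondria, was higher by 1.63 and 1.96 on the log2 scale (SE 0.07 for both), and the coactivator Ppargc1b by 2.09 and 1.79. Grsf1, a protein of the granules in which mitochondrial RNA is processed, was lower with -1.11 and -0.70, and Hsd17b10 with -0.83 and -0.71. Of the polyadenylation, stability and decay list 6 of 7 and 5 of 7 were higher in the yolk sac, with medians of 0.32 and 0.37, among them Lrpprc, which stabilizes heavy-strand mRNAs, with 0.57 at the earlier stage and Mtpap, the poly(A) polymerase, with 0.44. Of the transcription list 0 of 4 and 1 of 4 passed. Between stages 6 of 64 were higher and 14 lower at 7–9 somite pairs in embryos and 11 and 15 of 66 in yolk sacs, where 30.1% and 40.4% of all genes were called. Lrpprc rose by 1.01 (adjusted p 4.0e-11) in embryos and 0.82 (adjusted p 1.1e-09) in yolk sacs, and Tfam, which packages mitochondrial DNA and starts its transcription, was at -0.25 and -0.23. Of the polyadenylation, stability and decay list 1 rose and 3 fell in embryos, and 2 and 2 in yolk sacs. Of the transcription list 1 rose and 1 fell in each tissue.

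The genes whose level followed mt-Nd6 most closely across libraries differed between groups. In the 16 diabetic embryos with 7–9 somite pairs these were Rny3 (Pearson's r 0.902), Rn7sk (0.9), Mir1983 (0.897), Snord43 (0.887) and Tmem245 (0.885), and the value for mt-Nd1 was 0.143. In the 17 diabetic embryos with 5–6 somite pairs Rny3 led with 0.798. In the 16 diabetic yolk sacs with 7–9 somite pairs it was mt-Tq with 0.851, followed by Rnu11 with 0.792. In the diabetic yolk sacs with 5–6 somite pairs mt-Co1 led with 0.824. Other genes led in the normal groups. At 5–6 and 7–9 somite pairs these were Mir17hg (0.878) and Zfas1 (0.892) in embryos and Plac1 (0.887) and Ddah2 (0.759) in yolk sacs. Each leading value is the highest of many genes over 16 or 17 libraries. In normal embryos Rny3 was at 0.168 and 0.288 and mt-Nd1 at 0.741 and 0.52, and in normal yolk sacs Rny3 was at 0.844 and 0.146. These values describe log2(normalized count + 1) over libraries that share litters and size factors.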

How the data were processed

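The deposited values are counts of unique molecular identifiers per gene. The authors aligned QuantSeq 3′ FWD reads to mm10 with STAR, merged those sharing a molecular identifier and counted per gene with HTSeq. Program versions, annotation and strand setting are not given in the sources used here. Groups were taken from the labels for tissue, somite stage and maternal condition. Of 136 libraries, 4 batch-control duplicates were left out. The 37 members are the genes whose symbol starts with mt-. The other genes named are those of the listed groups that passed in a comparison (at most 5 per list), the chromosome 1 copies, and for mt-Nd6 the 5 genes most correlated with it. The members and lists were chosen with earlier results of these data known.

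All genes were tested with edgeR 4.0.16 under R 4.3.3 (glmQLFit, glmQLFTest, TMM, filterByExpr with minimum count 10, Benjamini-Hochberg), with maternal condition as a covariate between tissues and stages. The scripts were tested on simulated data with 200 changed genes. These data held no litter effect and so cannot show how calls fare among correlated littermates. Normalized counts use the size factors of DESeq2 1.42.0. The p-values treat littermates as independent, and the correlation of littermates estimated by limma 3.58.1 was 0.251, 0.128, 0.165 and 0.0992 in the 4 comparisons of maternal condition. Embryo and yolk sac are paired by the conceptus named in their titles, although the sex labels of the pair differ in 2 concepti. The median correlation of their deviations from the group means was 0.133 at 5–6 and 0.0613 at 7–9 somite pairs. Sequences are from the transcripts of GENCODE M21 (GRCm38), copies on chromosome 1 were aligned with BLAST 2.17.0, and totals per library of 1017901 to 5658850 counts limit the precision of low genes. Alternatives covered normalization, filter, tool, litter, covariates and samples.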

Additional observations from a re-analysis of the deposited data

Results flagged for a closer look

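Gm28438, the copy of mt-Nd3 on chromosome 1 (chr1:24612775-24613119, minus strand, GRCm38), is no member and held 916 counts over all libraries, in 127 of them and at most 40 in 1, above the limit that a count of 0 allows. Its 345 aligned bases differ from mt-Nd3 by 1 substitution, T3C, where the base of mt-Nd3 comes first and positions are counted from the first base of mt-Nd3. mt-Nd3 itself held 2 counts, and the other 6 copies at this locus held 5 to 42. In the main fits Gm28438 was too low for the tests between groups. There it passed the filter only in the stage by diabetes interaction of the yolk sac, with 0.69 on the log2 scale (SE 0.66, adjusted p 0.915 by edgeR). With counts summed per litter, 1 of the copies was tested between diabetic and normal pregnancies at 7–9 somite pairs. It was at -0.14 in embryos and -0.10 in yolk sacs and was not called.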

How the results depend on the processing

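The number of members called between diabetic and normal pregnancies depended on how litters were treated. In embryos at 5–6 somite pairs it was 2, and it became 4 with library size alone, 4 without a filter on low counts, 4 by DESeq2, 0 with the litter as a random block, 1 with somite number and sex as covariates, 4 with the title number as a covariate, 0 with counts summed per litter and 7 with all 8 groups in 1 fit. In embryos at 7–9 somite pairs it was 7, and became 0 with the litter as a random block, 13 with the title number and 0 with counts summed per litter. In yolk sacs at 7–9 somite pairs it was 2, and became 4 without the filter, 1 with the litter block and 0 with counts summed per litter. An alternative chosen after seeing the data left out the 2 litters with the highest tRNA or mt-Nd6 levels or many concepti (D28M23 with D24M22 at the earlier or D24M15 at the later stage) and gave 0, 0, 0 and 0 in the 4 comparisons.

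Over all genes the counts of 161, 966, 0 and 2 became 4, 314, 0 and 1 with the litter block, 0, 8, 0 and 0 with litter sums and 500, 1407, 3 and 38 by DESeq2. Leaving out each litter in turn gave 0 to 7 members in embryos at 5–6, 5 to 10 at 7–9, 0 to 0 in yolk sacs at 5–6 and 0 to 4 at 7–9 somite pairs, where 0 was without D24M15 and 4 without D28M31. Between stages 5 became 3 in embryos with the litter block, and with normal libraries alone 1 in embryos and 2 in yolk sacs.

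Between tissues the replicate block by conceptus gave 15 and 13 members in place of 14 and 13. In 2 concepti, 1 per stage, embryo and yolk sac carry different sex labels, and leaving them out, an alternative chosen after seeing the data, gave 14 and 13 members, or 15 and 12 with that block. Reversed values were mt-Tc at 0.03 at 5–6 and mt-Tv at 0.57 at 7–9 somite pairs, both with normal libraries alone. With all libraries mt-Tv was not called there. Of 1152 alternatives of single genes, pooled over all comparisons, 1064 kept direction and call, 86 kept the direction and lost the call and 2 reversed. These numbers do not describe the calls under diabetes alone. Of those, only mt-Nd6 in yolk sacs at 7–9 somite pairs stayed called with the litter as a random block. The causes were not tested.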

Other observations

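Duplicate libraries of 2 concepti, 4 pairs in all, gave nearly the same mitochondrial profile as their originals. On the log2 scale the summed heavy-strand mRNAs differed by 0.01 to 0.03, the summed tRNAs by -0.06 to 0.07 and the summed rRNAs by -0.13 to 0.03.

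The ratio of mt-Rnr2 to mt-Rnr1 counts had a median of 2.91 over all libraries and a range from 2.02 to 5.72. The highest value was in a yolk sac of litter D28M36, whose rRNA sum of 322184 normalized counts was also the highest of all libraries.

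By somite number, the median of mt-Nd6 in normal embryos was 544, 784, 943, 1732 and 758 normalized counts at 5, 6, 7, 8 and 9 somite pairs, and 818, 1408, 1600, 1929 and 1941 in diabetic embryos. In yolk sacs it was 215, 136, 158, 178 and 113 under normal and 239, 298, 475, 840 and 202 under diabetic conditions. The rRNA sum in normal embryos was 58569, 24262, 29181, 23986 and 25272, and in diabetic embryos 65164, 55107, 31791, 31147 and 26165. The numbers of concepti were 11, 6, 7, 4 and 5 under normal and 13, 4, 4, 9 and 3 under diabetic conditions.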
